A study of Mus musculus with 6 samples.

Results

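Necrostatin-1s was compared with vehicle in spinal cord cells of mice that carry SOD1-G93A, the mutant transgene used to model amyotrophic lateral sclerosis, once barcodes with skeletal muscle RNA had been removed. RNA was read by Drop-seq, in which droplets give every cell its barcode and every captured RNA molecule a unique molecular identifier (UMI). A barcode was kept if it had 200 or more detected genes and if genes of the mitochondrial genome held no more than 20% of its UMIs. A barcode was dropped if it held 3 or more UMIs summed over 7 genes of the muscle fibre: Acta1, Myl1, Tnnc2, Tnnt3, Ckm, Mylpf and Myh4. This left 2211 barcodes of the SOD1-G93A mice, of 3280 retained in the whole series and 21919 in the deposited tables.

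The vehicle group (SOD1-Veh) and the Necrostatin-1s group (SOD1-Nec) each held 2 libraries, numbered 1 and 2. Wild-type mice given vehicle (WT-Veh, 2 libraries) entered the model only to help estimate the spread between libraries. Accutase digestion, removal of myelin and a gradient of OptiPrep and Hibernate A gave the live cells in all groups. The labels name neither the age, nor the dose or length of treatment, nor the promoter of the transgene, and give no sign of which libraries came from separate animals. The p-values therefore measure only the spread between these libraries, which may be technical. An exact permutation test of 2 libraries against 2 cannot go below p = 0.333, so tests were made by edgeR's quasi-likelihood model across all genes. The comparison addresses what inhibition of RIPK1 does to gene expression in cells of the mutant cord.

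RIPK1 is a kinase that is recruited to the tumour necrosis factor receptor. Depending on its ubiquitination, it either supports NF-kB signalling and survival or, through its kinase activity, starts apoptosis or necroptosis, the lytic cell death carried out by RIPK3 and MLKL. Necrostatin-1s blocks the kinase activity. In the central nervous system the pathway is known from microglia, the resident macrophages, where it is linked to inflammatory gene expression, and from oligodendrocytes, where it is linked to cell death and loss of myelin.

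The SOD1-Veh libraries retained 380 and 376 barcodes with 415377 and 380981 UMIs, and the SOD1-Nec libraries 661 and 794 barcodes with 533235 and 652881 UMIs. Cells were shallower after Necrostatin-1s, with a median of 725 and 695.5 UMIs against 528 and 526. The median mitochondrial share was 6.23% and 6.99% against 8.36% and 7.38%, and the mitochondrial limit had removed 40.9% and 33.3% of barcodes in SOD1-Veh against 25.1% and 19.1% in SOD1-Nec. Sod1, whose entry does not separate the transgene from the mouse gene, stood at 4189 and 5712 UMIs per 1e6 UMIs of its library (CPM) in SOD1-Veh, 3828 and 4353 in SOD1-Nec, and 247 and 180 in WT-Veh, which fits the labelled genotypes. Cells of the nervous tissue and its vessels made up 40.5% and 37.2% of SOD1-Veh cells and 35.3% and 32.6% of SOD1-Nec cells. Cells with markers of blood and marrow made up 55.5% and 59.1% against 61.0% and 62.2%, so the labelled tissue was the smaller share of the barcodes in each of these libraries. No retained barcode occurred in more than 1 of the 4 libraries.

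Muscle RNA marked the SOD1-Veh libraries and was not fully removed with the barcodes. The rule dropped 19 and 61 barcodes from the SOD1-Veh libraries and 0 from both SOD1-Nec libraries. In the barcodes that stayed, the 7 genes still held 39 and 106 UMIs in SOD1-Veh against 4 and 5 in SOD1-Nec, which is 93.9 and 278 CPM against 7.50 and 7.66. In barcodes with under 100 genes, whose RNA is mostly free RNA of the suspension, the same genes reached 374 and 1052 CPM in SOD1-Veh, 9.66 in SOD1-Nec 1 and 0 in SOD1-Nec 2. The plot of muscle barcodes and muscle RNA shows these 3 readings for each library.

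**Figure D1:**
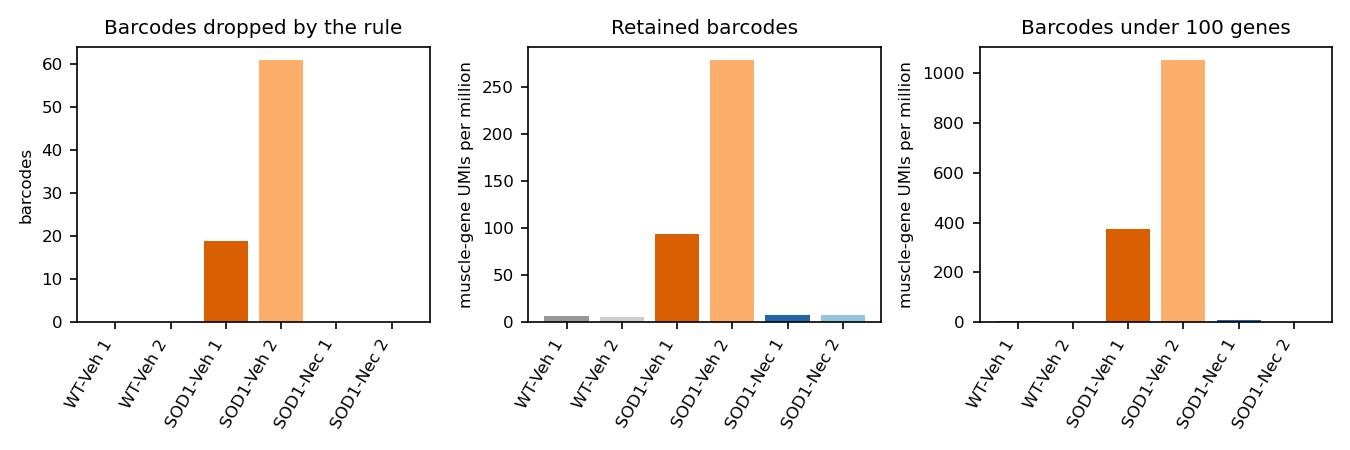
Bars give, for each of the 6 libraries, the number of barcodes dropped by the muscle rule (left), and the summed CPM of its 7 genes in retained barcodes (middle) and in barcodes with under 100 genes (right). Only SOD1-Veh 1 and SOD1-Veh 2 lost barcodes (19 and 61), and both keep more muscle RNA than the other 4 libraries in both kinds of barcode.

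With the muscle barcodes left in, edgeR called 36 of 7457 genes lower in SOD1-Nec at an adjusted p below 0.05 (0.483%) and 0 higher. Of the 36, 26 were in the muscle lists and all 7 genes of the rule were among them. The other 10 included Cox8b, Myot, Myoz1, Tmod4, Trdn and Xirp2, which also encode proteins of the muscle fibre. Aldoa, a glycolytic enzyme abundant in muscle, is an example: it stood at 1010 and 1875 CPM in SOD1-Veh against 183 and 194 in SOD1-Nec before the removal (log2 fold change -2.93 ± 0.34, adjusted p = 0.000444). After it, the values were 215 and 355 against 182 and 195 (-0.59 ± 0.31, adjusted p = 0.761). After the removal 8 of the 36 genes still had enough counts to be fitted. The rule used its 7 genes, so their values after the removal are given with no test. Acta1, the actin of skeletal muscle, stood at 22.2 and 46.2 CPM in SOD1-Veh and at 0 in both SOD1-Nec libraries, at least 12.4-fold lower when the SOD1-Nec group is set to a floor of 3 UMIs. Ckm, the muscle creatine kinase, was at 19.7 and 40.4 against 0 and 0, at least 10.9-fold lower, and Mylpf, a myosin light chain, at 32.1 and 40.4 against 3.80 and 8.19.

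Across the whole cord, that is over the summed UMIs of all retained barcodes, no gene passed. Of 7512 genes tested by edgeR, 0 were called (0.00%), the smallest adjusted p was 0.507, and 514 had an unadjusted p below 0.05: 235 higher in SOD1-Nec (3.13%) and 279 lower (3.71%). In 1446 genes (19.2%) both SOD1-Nec values lay above both SOD1-Veh values, and in 1498 (19.9%) below. DESeq2, on the same sums, called 27 genes, 13 higher (0.173%) and 14 lower (0.186%). Of its 13 higher genes, 8 encode ribosomal proteins (Rps21, Rps12, Rpl12, Rplp1, Rps20, Rpl39, Rpl30 and Rps26) and the rest include Eef1b2 and Tpt1, which serve translation and growth, the chaperone Hsp90aa1 and the metallothionein Mt2. Its 14 lower genes include the transcription factors Klf2, Atf3, Jun and Junb, the phosphatase Dusp1, the chemokine Ccl3, the complement gene C1qc, the polyubiquitin gene Ubb, and Ftl1, the light subunit of ferritin. The values that follow are from edgeR, on counts scaled by TMM (trimmed mean of M values), and none of these whole-cord genes passed its adjusted threshold.

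The gene with the smallest p was Rps21, a protein of the small ribosomal subunit, at 828 and 572 CPM in SOD1-Veh against 1705 and 1934 in SOD1-Nec (log2 fold change 1.38 ± 0.28, unadjusted p = 0.000206). Both SOD1-Nec libraries stood above both SOD1-Veh libraries, and the WT-Veh libraries, at 1054 and 869, lay between. S100a4, a calcium-binding protein of monocytes, stood at 106 and 75.1 against 260 and 247 (1.48 ± 0.34). Mthfd1, an enzyme of folate metabolism, was at 14.8 and 5.78 against 43.7 and 47.5 (2.08 ± 0.51), and Mns1, a structural protein of cilia, at 56.7 and 34.7 against 182 and 103 (1.62 ± 0.39). In each of these 3 genes the groups did not overlap. The other genes with the smallest p on this side were the mitochondrial tRNA genes mt-Tq (1.70 ± 0.39), mt-Tp (1.31 ± 0.31) and mt-Tf (1.52 ± 0.39), and Gm10800, a predicted gene (2.89 ± 0.69). Among retained barcodes the mitochondrial share per cell was higher in SOD1-Nec as well (above). This direction depended on the filter. The median log2 fold change of the mitochondrially encoded respiratory chain list was 0.23. It turned to -0.45 with a limit of 40% mitochondrial UMIs and to -0.03 with at least 400 genes per barcode. The part of the mitochondrial share in the tRNA values was not tested.

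Among the lower genes, Klf2, a transcription factor that is also part of the immediate-early response, stood at 1598 and 1525 CPM in SOD1-Veh against 710 and 752 in SOD1-Nec (-1.09 ± 0.27, unadjusted p = 0.0011). Ftl1 was at 1154 and 1915 against 467 and 760 (-1.32 ± 0.32), and Ubb at 1440 and 2547 against 756 and 960 (-1.22 ± 0.31). All 3 separated the groups, and in Ftl1 and Ubb the highest library was SOD1-Veh 2. Ccl5, a chemokine of T and NK cells, stood at 165 and 283 against 64.6 and 60.6 (-1.83 ± 0.43). Lrrc58, a leucine-rich repeat protein, was at 671 and 915 against 287 and 354 (-1.31 ± 0.28). The predicted genes Gm10269 (-1.49 ± 0.31) and Gm10116 (-1.87 ± 0.43) were also among the 8 lower genes with the smallest p. Acta1 completed the 8, but the muscle rule used this gene, so its rank is no result and no test is given. Predicted genes may share reads with near-identical copies, so their values are uncertain.

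No gene of the RIPK1 pathway passed at this depth. Of the 22 genes listed for RIPK1 and necroptosis, 15 had enough counts, 0 had an unadjusted p below 0.05 in either direction, and the median log2 fold change was -0.23 against -0.002 for all genes. Ripk1 stood at 37.0 and 23.1 CPM in SOD1-Veh against 19.0 and 32.8 in SOD1-Nec, with overlapping groups (-0.21 ± 0.52), and its sign turned without SOD1-Veh 1 (0.19), without SOD1-Nec 1 (0.11) and with at least 400 genes per barcode (0.17). Ripk3, the kinase that RIPK1 activates, had 5 and 2 UMIs against 4 and 1, and Mlkl, the pore-forming effector, 0 and 0 against 1 and 1, too few to test. Cyld, a deubiquitinase that acts on RIPK1, was at 19.7 and 23.1 against 53.2 and 29.5 (0.93 ± 0.47), and Birc2, a ubiquitin ligase of the same complex, at 32.1 and 46.2 against 13.3 and 24.6 (-1.01 ± 0.51). Their groups did not overlap, but the unadjusted p was 0.0646 and 0.0662.

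Over all 7512 genes, 3.71% were lower at an unadjusted p below 0.05 (edgeR), and 19.9% lay lower without overlap. These shares belong beside the counts of the lists that follow. Cytokines and their feedback genes had mostly negative values. Of 15 tested genes of tumour necrosis factor, interleukin-1 and NF-kB feedback, 5 were lower and 0 higher at an unadjusted p below 0.05, and in 10 both SOD1-Nec values lay below both SOD1-Veh values. Their median log2 fold change was -0.42, and -0.63 and -0.31 within the libraries numbered 1 and 2, whose tables list different numbers of genes. Il1a, a cytokine released by activated microglia and dying cells, stood at 136 and 167 CPM in SOD1-Veh against 57.0 and 70.4 in SOD1-Nec (-1.24 ± 0.32). Tnf, the ligand upstream of RIPK1, was at 150 and 113 against 77.8 and 62.2 (-0.92 ± 0.33). Socs3, a feedback inhibitor of cytokine receptors, was at 313 and 257 against 110 and 144 (-1.16 ± 0.30). Il1b, in contrast, overlapped at 106 and 78.0 against 112 and 110 (0.26 ± 0.38).

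Each of 12 tested chemokines had a negative log2 fold change, with a median of -0.78 (-0.70 and -0.92 by library number). In 6 the unadjusted p was below 0.05, and 9 did not overlap. Ccl3, which attracts myeloid cells, stood at 996 and 962 CPM in SOD1-Veh against 412 and 599 in SOD1-Nec (-0.95 ± 0.28). Cxcl2, which attracts neutrophils, was at 104 and 127 against 70.2 and 42.6 (-1.03 ± 0.35). Cxcl10, an interferon-induced chemokine, was at 56.7 and 40.4 against 28.5 and 8.19 (-1.44 ± 0.52). Of 10 complement genes, 5 were lower at that p, with a median of -0.71 (-0.79 and -0.53). C1qa and C1qc, subunits of the first complement component made by microglia, were at 791 and 852 against 389 and 503 (-0.88 ± 0.28) and at 1073 and 1074 against 518 and 653 (-0.87 ± 0.27).

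Immediate-early genes are switched on within minutes of a stimulus and also during enzymatic dissociation. Of 21 tested, 20 had a negative log2 fold change, 14 were lower and 0 higher at an unadjusted p below 0.05, and 18 did not overlap. The median was -0.80 (-0.82 and -0.44 by library number). Junb stood at 1497 and 1545 CPM in SOD1-Veh against 835 and 848 in SOD1-Nec (-0.85 ± 0.25), Atf3 at 540 and 679 against 317 and 324 (-0.92 ± 0.27), and Dusp1, a phosphatase that shuts off MAP kinases, at 690 and 716 against 391 and 346 (-0.93 ± 0.26). In all 3 the groups did not overlap. The part of the digestion in their level was not tested.

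Genes of microglia were mostly lower over the whole cord. Of 22 homeostatic genes, 9 were lower and 0 higher at an unadjusted p below 0.05 (median -0.49; -0.78 and -0.23 by library number). Tmem119, a surface protein that marks resident microglia, stood at 239 and 225 CPM in SOD1-Veh against 60.8 and 126 in SOD1-Nec (-1.30 ± 0.34). P2ry12, their ADP receptor, was at 296 and 280 against 150 and 185 (-0.78 ± 0.28). Selplg, the ligand of P-selectin, was at 461 and 430 against 213 and 251 (-0.94 ± 0.27). Of 21 disease-associated genes, which microglia raise around degenerating tissue, 2 were lower at that p and the median was -0.27 (-0.57 and -0.08). The growth factor Csf1 was at 104 and 110 against 45.6 and 55.7 (-1.07 ± 0.34), while the lipase Lpl was at 108 and 101 against 156 and 164 (0.61 ± 0.38) and Apoe overlapped at 2098 and 2114 against 1384 and 2439. Of 24 lysosomal genes, 4 were lower at that p and 15 did not overlap (median -0.45; -0.61 and -0.30), among them the proteases Lgmn (-0.74 ± 0.27) and Ctsa (-0.76 ± 0.29). In whole-cord sums, fewer microglia and less RNA per microglial cell cannot be told apart; microglia were 22.1% and 21.01% of SOD1-Veh cells and 18.6% and 19.5% of SOD1-Nec cells, and they held 21.01% and 18.5% of UMIs against 15.3% in each SOD1-Nec library. In SOD1-Veh microglia gave 92.7% of the UMIs of Ccl3, 86% of those of Tnf, 85.7% of those of Atf3, 74.3% of those of Junb and 74.1% of those of Dusp1; Cxcl2 came first from neutrophils (47.7%). The part of the microglial share in these values was not tested.

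**Figure D2:**
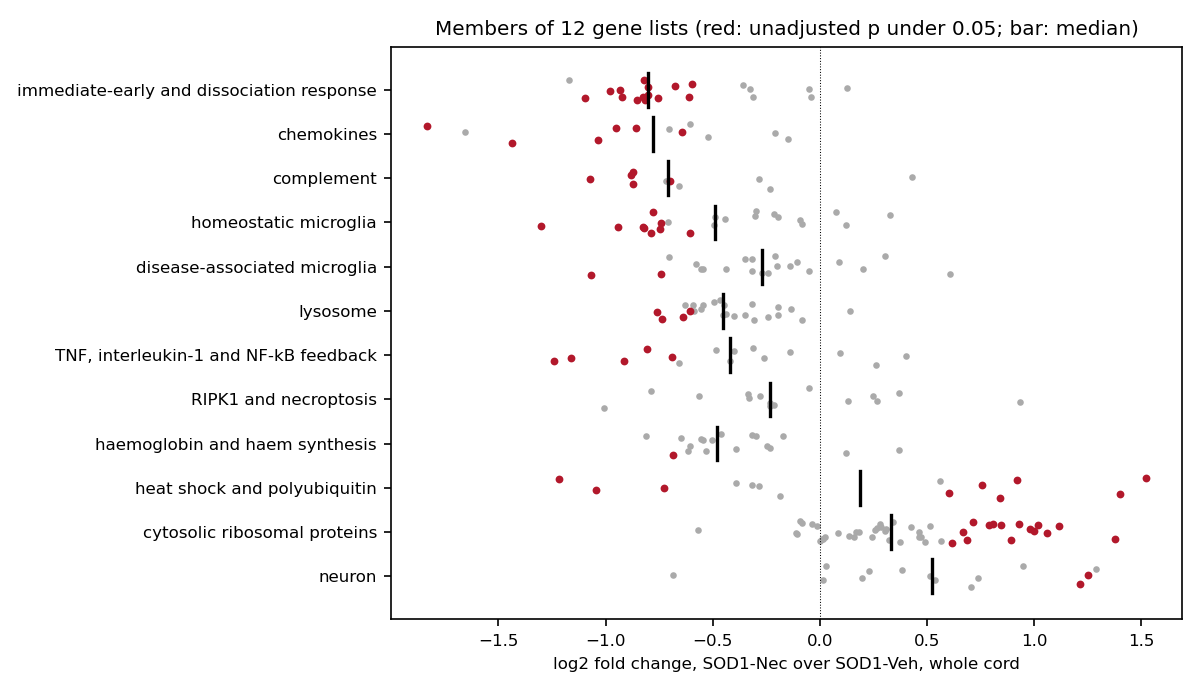
Each point is a tested gene of 1 of 12 lists, placed by its whole-cord log2 fold change of SOD1-Nec over SOD1-Veh; red points have an unadjusted p below 0.05 and the bar is the list median. The immediate-early, chemokine and complement lists lie mostly left of 0 (medians -0.80, -0.78 and -0.71), and the ribosomal list mostly right (0.33).

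Protein folding genes split. Of 14 tested heat-shock and polyubiquitin genes, 6 were higher and 3 lower at an unadjusted p below 0.05. Hsph1, a partner of HSP70, stood at 24.7 and 28.9 CPM in SOD1-Veh against 106 and 49.1 in SOD1-Nec (1.52 ± 0.44), and the chaperone Hsp90aa1 at 794 and 580.4 against 1435 and 1169 (0.92 ± 0.28). The metallothionein Mt2, a metal-binding protein induced by zinc and glucocorticoids, was at 276 and 243 against 691 and 418 (1.09 ± 0.31). The groups were apart, with SOD1-Nec 1 the highest of the 4. That library also held the most RNA of ependymal cells, the ciliated cells that line the central canal: 17 such barcodes gave 10.1% of its UMIs, against 1.93%, 0.10% and 1.13% in SOD1-Veh 1, SOD1-Veh 2 and SOD1-Nec 2. The 17 barcodes had a median of 417 UMIs, so a minority of deep barcodes held most of this RNA. Over both SOD1-Nec libraries, ependymal cells gave 45.4% of the Hsph1 UMIs, 25.4% of those of Hsp90aa1, 35.9% of those of Mt2 and 32.1% of those of Mns1. Mns1 came first from erythroid cells, which gave 77.1% of its UMIs in SOD1-Veh and 56.0% in SOD1-Nec. With the ependymal class left out, an alternative chosen after seeing the data, the log2 fold changes were 0.85 for Hsph1 (unadjusted p = 0.0577), 0.67 for Hsp90aa1, 0.69 for Mt2 and 1.20 for Mns1, and the median of the heat-shock list went from 0.19 to -0.00089. Of 9 oligodendrocyte stress and secreted genes, 5 were lower and 2 higher at that p. Their median was -0.98, and -0.22 and -0.83 by library number. Without SOD1-Veh 2 it was 0.12. Fkbp5 and Sgk1, both induced by glucocorticoids, were at 118 and 89.5 against 47.5 and 32.8 (-1.38 ± 0.36) and at 382 and 499.6 against 218 and 228 (-0.98 ± 0.30), while Klk6, a protease of oligodendrocytes, was at 64.1 and 31.8 against 144 and 131 (1.495 ± 0.417). Fkbp5 and Sgk1 came first from microglia, which gave 46.8% and 54.6% of their UMIs in SOD1-Veh against 37.8% and 66.5%. Klk6 came from oligodendrocytes (94.6% and 93.0%). Of 14 neuron genes, 2 were higher and 0 lower (median 0.53), among them the synaptic vesicle gene Sv2a, at 14.8 and 26.0 against 43.7 and 52.4 (1.25 ± 0.51), whose UMIs came first from oligodendrocytes (53.3% in SOD1-Veh, 58.2% in SOD1-Nec). Astrocyte genes had no common direction: of 20, 1 was higher and 2 lower, the lower being the gap junction gene Gjb6 (41.9 and 54.9 against 9.49 and 24.6) and Glul, glutamine synthetase (700.2 and 1253 against 522 and 603).

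Genes for cytosolic ribosomal proteins had mostly positive values after Necrostatin-1s. Over all genes, 3.13% were higher at an unadjusted p below 0.05 (edgeR), and 19.2% lay above without overlap. Of 48 in the list, 15 were higher and 0 lower at an unadjusted p below 0.05 over the whole cord, 32 lay above and 2 below without overlap, and the median log2 fold change was 0.33 (0.12 and 0.56 by library number). Rps12 stood at 1184 and 904 CPM in SOD1-Veh against 2016 and 2511 in SOD1-Nec (1.12 ± 0.29), and Rplp1, a stalk protein of the large subunit, at 1864 and 1193 against 2797 and 3587 (1.06 ± 0.29). All 85 ribosomal protein symbols together took 7.86% and 7.24% of UMIs in SOD1-Veh against 9.16% and 10.9% in SOD1-Nec, against 8.07% and 5.53% in WT-Veh. SOD1-Nec stood above the other 4 libraries. In the fits of single cell classes, 26 ribosomal protein genes were called higher in at least 1 class and 0 lower.

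Transcripts of ribosomal protein genes are known to begin with a run of C and T, the terminal oligopyrimidine motif by which their translation is controlled. The promoter table of RefSeq (build GRCm38.p6) held 19 of the 26 called genes, with 23 start sites, and 14 of the 23 (60.9%) had a run of at least 7 C or T on the sense strand within 30 bases centred on the start, against 18.6% of all 32851 promoters in the table. The 30 bases are printed for Rps21 and Rpl12, called in 3 classes, for Rps12, Rps26 and Rpl39, called in microglia with any library left out, and for Rpl26, also called, whose longest run is 3. They were chosen after their values were seen. Rps21 has 2 starts in the table, and the longest run at the second is 4. A run was counted anywhere in the window, so the 60.9% is not a share of terminal oligopyrimidine motifs. The longest C or T run is in capitals and transcription starts at base 16. No run marked here begins at that base.
Rps21, first start, chr2:180257364-180257393, + strand: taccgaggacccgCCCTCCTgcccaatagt
Rps21, second start, chr2:180257434-180257463, + strand: ggacaagtgagcaggtaggCCTCggtgcgg
Rpl12, chr2:32961697-32961726, + strand: ggcggagcaggatccgTCTTTTCggctttc
Rps12, chr10:23787195-23787224, - strand: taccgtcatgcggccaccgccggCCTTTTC
Rps26, chr10:128626492-128626521, - strand: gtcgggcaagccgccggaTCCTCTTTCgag
Rpl39, chrX:37085208-37085237, - strand: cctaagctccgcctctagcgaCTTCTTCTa
Rpl26, chr11:68901551-68901580, + strand: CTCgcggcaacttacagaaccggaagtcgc
Runs of 7 or more were found in 13 of the 19 matched genes. They describe the letters of these windows, and translation was not measured.

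Within microglia, edgeR called 46 of 1597 genes (2.88%), 32 higher in SOD1-Nec (2.00%) and 14 lower (0.877%). Ribosomal protein genes made up 17 of the 32 higher genes, haemoglobin genes 4, and the lipid genes Apoe and Lpl and the metallothionein Mt2 were with them. The 14 lower genes hold the stress-responsive genes Klf2, Dusp1 and Socs3, the polyubiquitin gene Ubb, Ftl1 and Tmem119. Of the 46 calls, 10 were kept when each of the 6 libraries was left out in turn, and 23 were also made by DESeq2. Only 28 genes were called without SOD1-Veh 2, 27 without SOD1-Nec 1 and 24 without SOD1-Nec 2. With total UMIs as size factors 24 of the 32 higher genes and all 14 lower genes stayed called, among 24 higher and 20 lower.

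Rps21 rose from 961 and 527 CPM in SOD1-Veh to 2390 and 2604 in SOD1-Nec (log2 fold change 1.72 ± 0.25, adjusted p = 7.73e-07). Rps26 rose from 932 and 452 to 1889 and 1946 (1.43 ± 0.26), and Rps12 from 1587 and 1242 to 3042 and 3097 (1.11 ± 0.22). In each the lowest library was SOD1-Veh 2 and the 2 SOD1-Nec libraries stood close together; these 3 genes and Rpl39 (1.08 ± 0.25) were called with any library left out. Over all 78 ribosomal protein genes tested in microglia the median log2 fold change was 0.48, against 0.01 for all genes. Rps26, Rpl39 and the ribosomal genes named only here were chosen after their values were seen.

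Apoe, the lipid carrier of disease-associated microglia, rose from 5068 and 5701 CPM in SOD1-Veh to 6752 and 12581 in SOD1-Nec (0.85 ± 0.22, adjusted p = 0.0173), and Lpl from 466 and 564 to 969 and 1206 (1.09 ± 0.31, adjusted p = 0.0346). The rise of Apoe came mostly from SOD1-Nec 2: its log2 fold change ranged from 0.32 to 1.23 with 1 library left out, and both calls were lost without SOD1-Veh 1 and without SOD1-Nec 2. The disease-associated list did not rise as a whole in microglia. Of its 19 tested genes, 2 were called higher and 0 lower. A positive log2 fold change was found for 7 and a negative one for 12 (median -0.14). Mt2 rose from 160.2 and 226 to 635 and 439 (1.48 ± 0.39, adjusted p = 0.0178). That call was lost without SOD1-Veh 1 and without SOD1-Nec 1.

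Klf2 fell from 6903 and 7996 CPM in SOD1-Veh to 4145 and 3741 in SOD1-Nec (-0.92 ± 0.22, adjusted p = 0.0061). Dusp1 fell from 2956 and 3537 to 1939 and 1727 (-0.82 ± 0.22) and Socs3 from 1544 and 1543 to 836 and 877 (-0.85 ± 0.25). The groups did not overlap, yet all 3 calls were lost without SOD1-Veh 2 and without SOD1-Nec 2, that of Dusp1 also without SOD1-Nec 1, and that of Socs3 with any library but WT-Veh 2 left out. Ftl1 fell from 3117 and 4685 to 1287 and 2015 (-1.22 ± 0.23), a call lost without SOD1-Nec 1, and Ubb from 2403 and 3763 to 1437 and 1357 (-1.13 ± 0.23), lost without SOD1-Veh 2. Tmem119 fell from 1165 and 1429.9 to 485 and 754 (-1.04 ± 0.26) and lost its call without either of those libraries. Lrrc58 fell from 1369 and 1900.2 to 635 and 630.4 (-1.36 ± 0.26) and was called with any library left out. Of the lists behind these genes, 2 of 20 immediate-early genes were called lower and 19 had a negative log2 fold change (median -0.48), 1 of 20 homeostatic genes was called (-0.24), and of 7 chemokines (-0.32), 8 complement (-0.36) and 20 lysosomal genes (-0.17) none was.

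**Figure D3:**
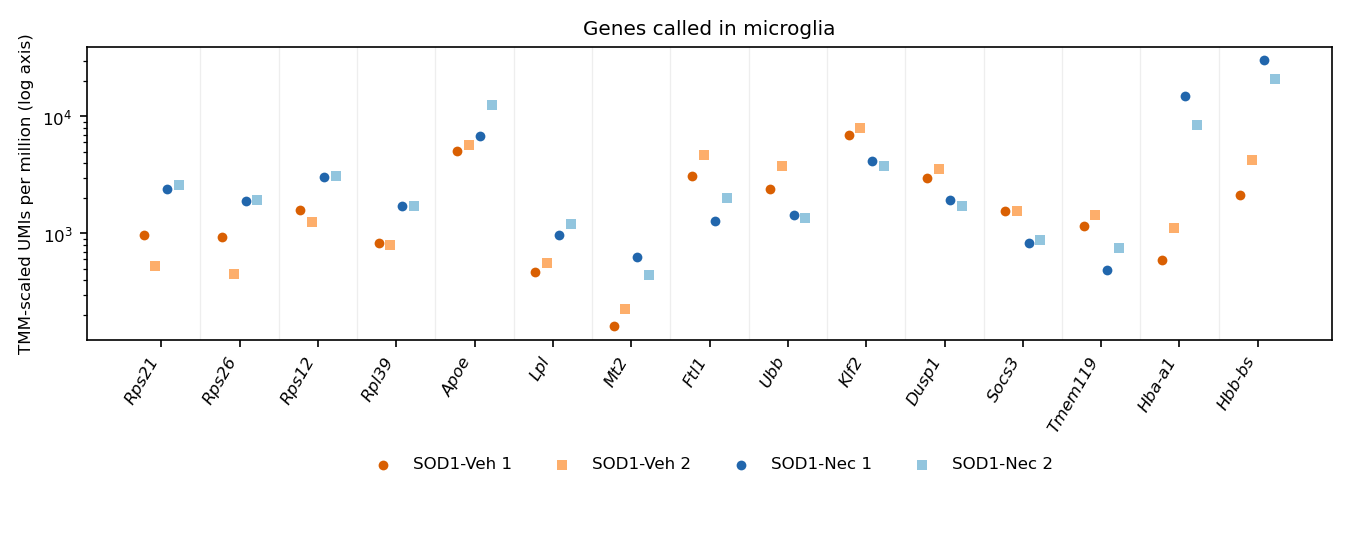
Points give the TMM-scaled CPM of genes called in microglia, on a log axis, for the 2 SOD1-Veh libraries (orange) and the 2 SOD1-Nec libraries (blue). For the genes drawn the groups do not overlap; Rps21 goes from 961 and 527 to 2390 and 2604, and Klf2 from 6903 and 7996 to 4145 and 3741.

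Microglia fell into clusters that held different shares of the groups. Cluster 0, led by P2ry12, Siglech and Trem2, held 38 and 32 cells of SOD1-Veh and 91 and 117 of SOD1-Nec. Cluster 2, led by Ccl3, Ccl4, Atf3, Jun and Tnf, held 46 and 47 against 32 and 38. Since genes that define the clusters differ between the groups, these sizes are no result of their own, but several microglial values depended on them. Fits within each cluster were added after the data were seen and called 11 genes in cluster 0, where 404 were tested, and 15 in cluster 2, where 1055 were.

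In cluster 2 Apoe rose from 4264 and 4043 CPM to 7212 and 15456 (1.45 ± 0.27, adjusted p = 0.0143) and Lpl from 287 and 659.5 to 1697 and 1964 (1.99 ± 0.39, adjusted p = 0.0143). In cluster 0 the same genes had negative values, with Apoe at 11042 and 16465 against 8657 and 13448 (-0.31 ± 0.30) and Lpl at 1354 and 711 against 559 and 829 (-0.60 ± 0.54), and were not called. The difference between the clusters was not tested. Dusp1 fell in cluster 2 (-1.01 ± 0.24, adjusted p = 0.0378) and gave 0.42 ± 0.44 in cluster 0; Klf2 gave -0.94 ± 0.25 (adjusted p = 0.054) and 0.16 ± 0.34, and Socs3 -0.96 ± 0.30 (adjusted p = 0.134) and 0.89 ± 0.51. Rps21 rose in both clusters, by 1.51 ± 0.38 in cluster 0 and 1.52 ± 0.30 in cluster 2. Ftl1 was at 3419.6 and 5895 against 1396 and 2088 in cluster 0 (-1.38 ± 0.39, adjusted p = 0.0586) and fell from 3668 and 5477 to 1619.9 and 2544 in cluster 2 (-1.12 ± 0.27, adjusted p = 0.0378).

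Erythroid cells, the haemoglobin-making cells of marrow and blood, gave the largest number of calls. They held 62 and 59 cells of SOD1-Veh and 122 and 167 of SOD1-Nec. Erythroid barcodes were shallower after Necrostatin-1s: half-way values (medians) fell from 1408.5 and 2052 UMIs to 727 and 716. The part of this difference in the erythroid calls was not tested. Of 1309 genes, edgeR called 84 (6.42%), 32 higher (2.44%) and 52 lower (3.97%) in SOD1-Nec. Of the 18 haemoglobin and haem synthesis genes, 17 were tested, all had a negative log2 fold change, 12 were called lower and the median was -1.05, against -0.07 for all genes. On the other side, 23 of the 32 higher genes encode ribosomal proteins, with Eef1b2, a translation elongation factor, and the chaperones Hsp90ab1 and Hspe1. Of the erythroid genes described here, the haemoglobin genes, Fech, Slc4a1, Hsp90ab1, Hspe1 and Eef1b2 were chosen after their values were seen.

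Hba-a1, an alpha-globin gene, was at 172878 and 205717 CPM in SOD1-Veh and fell to 80283 and 83566 in SOD1-Nec (-1.21 ± 0.26, adjusted p = 0.00859). Hbb-bs, the beta-globin counterpart, fell from 290701 and 318980 to 138725 and 155518 (-1.05 ± 0.27, adjusted p = 0.0253). Alas2, the enzyme that starts haem synthesis in red cells, fell from 2491 and 2030 to 1028 and 897 (-1.23 ± 0.24, adjusted p = 0.00424). Fech, which inserts the iron, fell from 834 and 910 to 379 and 395. Slc4a1, the anion exchanger of the red cell membrane, fell from 1585 and 1715 to 973 and 962. None of these groups overlapped. Apart from haemoglobin, the lower genes include Bnip3l, which clears mitochondria from maturing red cells (929.5 and 782 against 166 and 223; -2.11 ± 0.32), Mkrn1, a ubiquitin ligase (1239 and 1435 against 324 and 548; -1.59 ± 0.27), and Ftl1 (953 and 2053 against 414 and 506; -1.70 ± 0.30). Sod1 itself fell from 11512 and 13601 to 5733 and 7001 in these cells (-0.98 ± 0.22, adjusted p = 0.0107).

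Higher genes had narrow SOD1-Nec values. Rps21 rose from 644 and 432 CPM to 1552 and 1473 (1.49 ± 0.26, adjusted p = 0.00171), Rps12 from 1108 and 922 to 2580 and 2513 (1.33 ± 0.22) and Rpl12 from 298 and 198 to 842 and 850.2 (1.77 ± 0.31). Hsp90ab1, a cytosolic chaperone, rose from 715 and 513 to 1511 and 1449.5 (1.27 ± 0.24), and Hspe1, the mitochondrial co-chaperonin, from 107 and 35.0 to 276 and 339 (2.11 ± 0.46). Rps21, Rps12, Rpl12, Rplp1, Bnip3l and Ubb are the 6 genes of 84 that were called with any library left out. DESeq2 also called 49 of the 84. Only 27 genes were called without SOD1-Veh 2, 16 without SOD1-Nec 1 and 18 without SOD1-Nec 2. The 4 haemoglobin genes, Fech, Slc4a1 and Sod1 were not called in any of those 3 fits. Alas2 lost its call without SOD1-Nec 2, Mkrn1 without SOD1-Nec 1 and Ftl1 without SOD1-Veh 2.

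**Figure D4:**
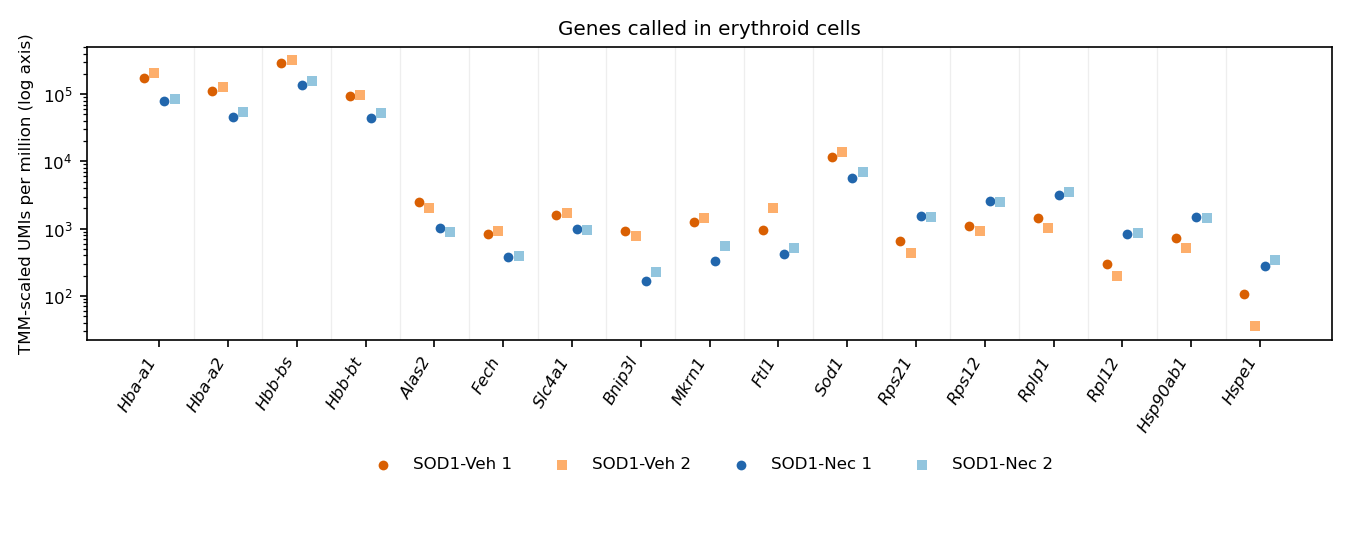
Points give the TMM-scaled CPM of genes called in erythroid cells, on a log axis, for the 2 SOD1-Veh libraries (orange) and the 2 SOD1-Nec libraries (blue). Haemoglobin, haem and membrane genes lie lower in both SOD1-Nec libraries, and the ribosomal and chaperone genes from Rps21 to Hspe1 lie higher.

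The number of lower erythroid genes depended on the scaling. TMM factors were 0.897 and 0.830 in SOD1-Veh against 1.35 and 1.31 in SOD1-Nec. With total UMIs alone as size factors, an alternative added after the data were seen, the median of all genes moved from -0.07 to 0.55, and 217 genes were called higher and 8 lower. The 8 were Hba-a1, Hba-a2, Hbb-bs, Bnip3l, Mkrn1, Ftl1, Ubb and Sec61g, and all 32 higher genes stayed called. No called gene turned its sign, but Alas2 gave -0.62 (adjusted p = 0.127) and Sod1 -0.35 on that scale and neither was called. Ribosomal protein genes had a median of 0.60 with TMM (23 of 78 called) and 1.22 with total UMIs (68 of 78).

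Erythroid cells also came from clusters with different leading genes. Cluster 5, led by Hemgn, Car1 and Klf1, genes of red cell precursors, held 23 and 32 cells of SOD1-Veh and 64 and 64 of SOD1-Nec. Cluster 4, led by Bpgm and haemoglobin genes, held 27 and 18 against 56 and 89, and cluster 15, the deepest, held 12 and 9 against 2 and 14. At a coarser Leiden resolution of 0.5, 240 cells of cluster 4 fell into the cluster named astrocytes, so the identity of cluster 4 is uncertain. The erythroid class of that resolution gave 33 higher and 34 lower calls, against 32 and 52 in the main fit. Fitted alone, cluster 4 gave 12 calls and cluster 5 gave 58. Hba-a1 fell in cluster 4 (192749 and 316811 against 75553 and 68927; -1.82 ± 0.31, adjusted p = 0.00849) and gave -0.89 ± 0.31 in cluster 5 (adjusted p = 0.0689). Bnip3l fell in both, by -2.53 ± 0.41 and -1.64 ± 0.42. Rps21 rose in cluster 5 (1.91 ± 0.31) and gave 0.61 ± 0.38 in cluster 4 (adjusted p = 0.488).

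GATA1 is the transcription factor that drives red cell genes, so the promoters of the 52 lower erythroid genes were searched for its core sequence AGATAA and the reverse complement TTATCT in the 250 bases before the start. Of 45 promoters found for 35 of the genes, 6 held a match (13.3%), against 9.99% of all promoters, which is near the background. Alas2, shown because it is the haem enzyme with the smallest p, has a match that begins 86 bases before its start. The sequence is from RefSeq, chrX:150547167-150547416 on the + strand of GRCm38.p6, with the match in capitals.
Alas2: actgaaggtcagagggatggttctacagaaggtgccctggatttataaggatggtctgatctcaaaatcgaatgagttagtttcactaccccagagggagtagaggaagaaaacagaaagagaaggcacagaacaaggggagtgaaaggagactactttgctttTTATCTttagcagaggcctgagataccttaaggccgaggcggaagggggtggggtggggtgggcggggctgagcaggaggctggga
Such a match is a description of the letters, and no binding was measured.

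The same haemoglobin genes rose in microglia and monocytes. In microglia Hba-a1 rose from 597 and 1110.03 CPM in SOD1-Veh to 14841 and 8414 in SOD1-Nec (3.79 ± 0.27, adjusted p = 2.53e-18), and Hba-a2, Hbb-bs and Hbb-bt rose by 3.83, 3.02 and 3.47 on the log2 scale. In monocytes Hba-a1 rose from 741 and 1009.8 to 11549.5 and 5497 (3.31 ± 0.43, adjusted p = 1.73e-05). WT-Veh, at 4895 and 4005 in microglia, lay between the mutant groups. In B cells 0 of 4 tested genes of the haemoglobin and haem list were called (median 0.62) and in neutrophils 0 of 5 (0.88); Hbb-bs overlapped in B cells, at 9421 and 17514 plain CPM against 24459 and 17398. In the microglial cluster 2 alone Hba-a1 was at 508 and 1032 against 5747 and 354 and overlapped. On plain CPM, Hbb-bs was 175323 and 142951 in the free RNA of the SOD1-Veh libraries and 341738 and 389409 in that of SOD1-Nec. Its microglial values on that scale were 1673 and 3187 against 22123 and 15227. The part of free RNA in these calls was not tested.

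S100a9 and Camp, abundant proteins of neutrophils, rose in B cells and monocytes. In B cells S100a9 rose from 171 and 179.7 CPM to 2535 and 2402 (3.78 ± 0.41, adjusted p = 2.61e-06). In monocytes it rose from 106 and 356 to 4209 and 18112 (5.74 ± 0.64, adjusted p = 4.15e-06), with SOD1-Nec 2 far above SOD1-Nec 1, while WT-Veh stood at 11834 and 9118. Camp rose in both classes: from 2 and 1 UMIs to 31 and 63 in B cells, a ratio of 21.9 with an exact 95% interval of 7.27 to 108, and from 1 and 1 to 71 and 581 in monocytes, a ratio of 148 (40.9 to 1228). These intervals cover counting error only. On plain CPM S100a9 was 464 and 669 in the free RNA of SOD1-Veh and 557 and 229 in that of SOD1-Nec, and the groups overlapped. In neutrophils themselves it overlapped, at 120193 and 114071 against 126907 and 110273. The part of free RNA in the calls of S100a9 and Camp was not tested.

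**Figure D5:**
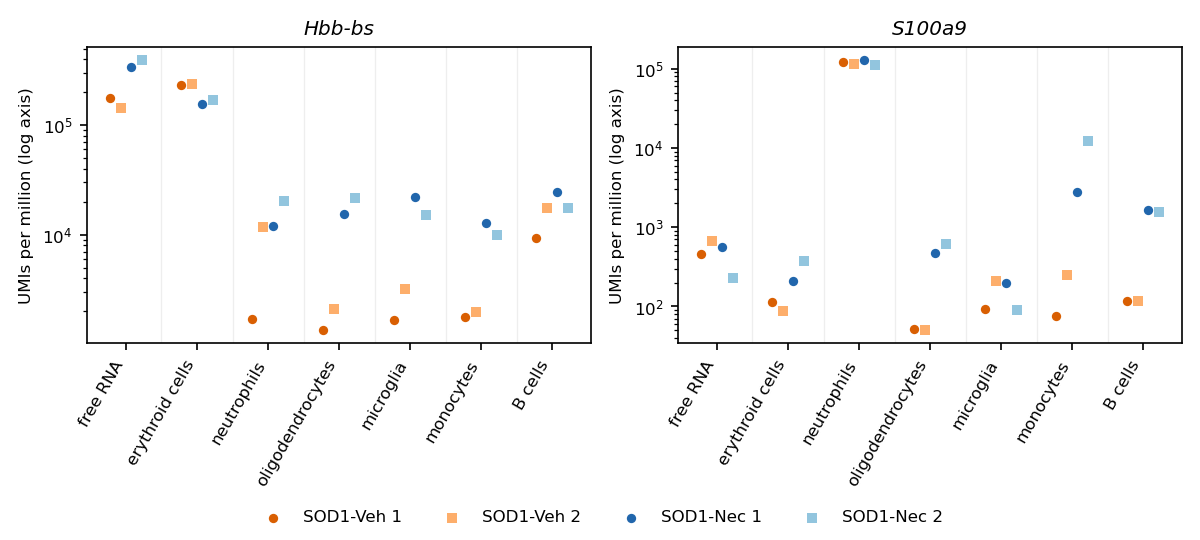
For Hbb-bs and S100a9, points give plain CPM on a log axis in the free RNA and in 6 cell classes, for the 2 SOD1-Veh libraries (orange) and the 2 SOD1-Nec libraries (blue). Hbb-bs is higher in SOD1-Nec in free RNA, microglia and monocytes and lower in erythroid cells. S100a9 is higher in B cells and monocytes, and in free RNA its groups overlap.

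B cells gave 10 calls of 959 (1.04%), 8 higher (0.834%) and 2 lower (0.209%). The higher genes included S100a9, S100a8, Camp, Ngp, Rps21 (1680 and 1468 against 4235 and 3622 CPM; 1.32 ± 0.29), Rpl12 (1.27 ± 0.29) and Top1, a topoisomerase (1.62 ± 0.39). S100a9, S100a8 and Camp were called with any library left out, and the other 7 were not. Leaving out 1 library gave 4 calls (without SOD1-Nec 2) to 19 (without WT-Veh 2). With total UMIs as size factors, chosen after seeing the data, 4 of the 8 higher genes stayed called, and Rps21 (adjusted p = 0.0518), Rpl12 (0.0580), Ngp (0.0518) and Top1 (0.0580) did not. Monocytes gave 11 of 1110 (0.991%), 10 higher (0.901%) and 1 lower (0.0901%). The higher genes included the 4 haemoglobin genes and S100a9, S100a8, Camp, Ngp and 1100001G20Rik of neutrophils, and none was a ribosomal protein gene. Leaving out 1 library gave 12 calls (without SOD1-Nec 2) to 19 (without SOD1-Veh 2). Ngp and Top1 in B cells and S100a8, Ngp and 1100001G20Rik in monocytes were named after their values were seen. The monocyte cluster was led by F13a1, S100a4 and Ms4a6c, with Elane, Mpo and Prtn3 of myeloid progenitors also among its 10 leading genes. Gm10269 was called lower in all 4 classes with calls; in microglia it was at 481 and 583 against 100.3 and 192 (-1.81 ± 0.40).

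Neutrophils had 0 calls of 818 (0.00%) by edgeR and 0 by DESeq2, and a smallest adjusted p of 0.208. The count depended on the libraries: edgeR called 25 genes without SOD1-Veh 1, 2 to 9 without any other single library, and 4 with a replicate block. An unadjusted p below 0.05 was found for 51 genes higher (6.23%) and 46 lower (5.62%). No other class reached 20 cells in each library. Of 48 ribosomal protein genes listed, 47 had a positive log2 fold change with a median of 0.88, against -0.03 for all genes; 21 were higher and 0 lower at that p, none called. Rps21 was at 486 and 435 CPM against 1245 and 1346 (1.48 ± 0.34). Retnlg, a secreted protein of mature neutrophils, was at 14962 and 22560 against 9572 and 4565 (-1.41 ± 0.38), and the collagenase Mmp8 at 5813 and 7218 against 4444 and 1618 (-1.11 ± 0.41). This class had 2 clusters with different shares of the groups. Cluster 9, led by Retnlg, Mmp8 and Cxcr2, held 34 and 33 cells of SOD1-Veh and 24 and 16 of SOD1-Nec. Cluster 6, led by Ngp, Camp and Ltf, held 18 and 15 against 52 and 64.

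Of 14 classes, 1 passed as a share of cells (7.14%). Astrocytes support neurons and clear glutamate. They made up 5.53% and 4.52% of SOD1-Veh cells (21 and 17 cells) against 1.51% in each SOD1-Nec library (10 and 12 cells). The log2 change was -1.72 ± 0.25 (edgeR, adjusted p = 0.00961). By UMIs their share was 2.21% and 2.40% in SOD1-Veh against 0.83% in SOD1-Nec 1 and 1.91% in SOD1-Nec 2. The call rests on few cells: without SOD1-Nec 1 or SOD1-Nec 2 the adjusted p was 0.183 and 0.210. At a coarser Leiden resolution of 0.5 the cluster that took this name held 361 cells, the 118 astrocytes and 240 cells of erythroid cluster 4 among them, so its value of 0.02 (adjusted p = 0.998) is not a share of the same cells. Monocytes went from 7.63% and 7.71% to 13.8% and 12.3% (0.76 ± 0.29, adjusted p = 0.288). Their adjusted p was 0.0237 when the 4 SOD1 libraries were fitted alone and when either WT-Veh library was left out. Oligodendrocytes were 4.47% and 7.98% against 7.26% and 7.56% and overlapped, as did neurons at 3.42% and 1.86% against 3.93% and 1.13%. Microglia gave -0.18 ± 0.19 and did not pass (adjusted p = 0.664).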

How the data were processed

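The deposited tables give counts of UMIs per gene and barcode, made by the authors from Drop-seq reads. The submitters' processing notes name the mouse build mm9, and which aligner was used is not given in the sources used here. Of the listed genes, the 17042 common to all 6 tables were used. Barcodes were filtered as the report states and clustered with scanpy 1.11.5 (2000 variable genes, 30 principal components, 15 neighbours, Leiden resolution 1). Each of the 20 clusters took the cell type with at least 3 markers of a list raised in it. Scrublet marked 24 of the retained barcodes as doublets, and these were kept.

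UMIs were summed per library, and per library and class where each library had at least 20 cells. Sums were fitted with edgeR 4.0.16 (filterByExpr, TMM factors, quasi-likelihood F test) over all 6 libraries with group as the only term. The contrast is SOD1-Nec minus SOD1-Veh, log2 fold changes are given ± their standard error, and every adjusted p in the text is edgeR's with Benjamini-Hochberg adjustment over all genes of the fit, at a threshold of 0.05. CPM in differential results are TMM-scaled, and those of library facts and free RNA are plain. Shares were fitted the same way on cell counts without TMM. DESeq2 1.42.0, other filters, scalings and clusterings, a replicate block and leaving out each library were alternatives. The edgeR script was tested on simulated data.

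Members, the 36 gene lists and the markers were chosen with earlier results of these data known. Genes were named by rule: the 8 higher and 8 lower with the smallest p over the whole cord, up to 4 with the smallest p in each list, the RIPK1 and muscle genes, Apoe, Lpl, Mt2 and some cytokines, and up to 4 called genes in each direction per class. Genes outside it are said to be chosen after their values were seen. Some called genes are not reported here.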

Additional observations from a re-analysis of the deposited data

Results flagged for a closer look

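Haemoglobin genes went in opposite directions in different cell classes, with both libraries of a group on the same side in each. In erythroid cells the log2 fold change of SOD1-Nec over SOD1-Veh was -1.21 for Hba-a1, -1.24 for Hba-a2, -1.05 for Hbb-bs and -1.02 for Hbb-bt. In microglia it was 3.79, 3.83, 3.02 and 3.47 in the same order, and in monocytes 3.31, 2.92, 2.69 and 2.52. The difference between the classes was not tested.

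Barcodes with under 100 genes, which enter no comparison, held 374 CPM of the 7 muscle genes in SOD1-Veh 1 and 1052 CPM in SOD1-Veh 2, above the other 4 libraries.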

How the results depend on the processing

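Over the whole cord, where edgeR called 0 genes, DESeq2 called 27, keeping the muscle barcodes gave 36, and a fit of the 4 SOD1 libraries with a replicate block, chosen after seeing the data and left with 1 residual degree of freedom, gave 162. Leaving out 1 library gave 0 to 21, with 21 without WT-Veh 2, 6 without SOD1-Nec 2 and 2 without SOD1-Nec 1. The other alternatives gave 0, among them the replicate block over all 6 libraries and leaving out the ependymal class, chosen after seeing the data. Within cell classes the 151 calls became 286 with total UMIs as size factors (chosen after seeing the data; 255 higher and 31 lower, against 82 and 69), 98 with the 4 SOD1 libraries, 85 with DESeq2 and 83 with no filter on low counts. Leaving out 1 library gave 60 to 223, with 85 without SOD1-Veh 2, 65 without SOD1-Nec 1 and 60 without SOD1-Nec 2. The replicate block gave 177 calls. Deviations from the group means correlated at 0.161 between SOD1-Veh 1 and SOD1-Nec 1, the libraries of this contrast. With WT-Veh 1 they correlated at -0.151 (SOD1-Veh 1) and -0.263 (SOD1-Nec 1). The tables of libraries numbered 1 list 18169 genes and those of libraries numbered 2 list 18650. The main fit did not take the numbers as pairs, and whether they mark a batch was not tested. Called class shares, 1 of 14, became 0 at Leiden resolution 0.5 (0.015 on the log2 scale for the cluster named astrocytes, which there held mostly other cells) and 2 with the 4 SOD1 libraries, with 0 to 2 when 1 library was left out.

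Signs turned over the whole cord for Ripk1 (0.17 with at least 400 genes per barcode; -0.68 to 0.19 with 1 library left out), Apoe (0.016 and -0.61 to 0.21 likewise) and Il1b (-0.043 with at least 100 genes per barcode). In microglial cluster 0 alone they turned for Klf2 (0.16), Dusp1 (0.42), Socs3 (0.89), Apoe (-0.31) and Lpl (-0.60). Some list medians over the whole cord turned too. That of oligodendrocyte stress and secreted genes went from -0.98 to 0.12 without SOD1-Veh 2. That of haemoglobin and haem synthesis went from -0.48 to 1.75 with the erythroid class left out. The cause was not tested for any of these. With 2 libraries per group and the low UMI counts per cell, genes such as Ripk3 and Mlkl were too sparse to test.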
